A study of Mus musculus with 24 samples.

Results

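The genes described here encode factors that start and extend protein synthesis on the ribosome, other than eIF2 and its exchange factor eIF2B. They are the 42 mouse genes of a given list of symbols, matched to the gene names of the deposited tables, and all 42 were found among the 32728 genes listed. Ordered by complex they are 4 genes of start site selection and subunit joining (Eif1, Eif1ax, Eif5, Eif5b), 13 of eIF3 (Eif3a, Eif3b, Eif3c, Eif3d, Eif3e, Eif3f, Eif3g, Eif3h, Eif3i, Eif3j1, Eif3k, Eif3l, Eif3m) and 2 that can deliver initiator tRNA without eIF2 (Eif2a, Eif2d). A further 3 encode cap-binding proteins (Eif4e, Eif4e2, Eif4e3), 2 their inhibitors (Eif4ebp1, Eif4ebp2), 4 the helicase and its cofactors (Eif4a1, Eif4a2, Eif4b, Eif4h) and 3 the scaffolds (Eif4g1, Eif4g2, Eif4g3). The last are 3 genes of eIF5A and eIF6 (Eif5a, Eif5a2, Eif6), 6 of elongation factor eEF1 (Eef1a1, Eef1a2, Eef1b2, Eef1d, Eef1e1, Eef1g) and 2 of eEF2 and its kinase (Eef2, Eef2k).

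Translation of most mRNAs starts when eIF4E binds the cap at the 5′ end, the scaffold eIF4G joins it to the helicase eIF4A, and eIF3 bridges this assembly to the small ribosomal subunit. eIF1, eIF1A and eIF5 govern the choice of the start codon, eIF5B joins the large subunit, eEF1 brings aminoacyl-tRNAs to the ribosome and eEF2 moves it along the mRNA. Cells restrain the process by phosphorylating eIF2, which PERK does under endoplasmic reticulum (ER) stress, by the eIF4E binding proteins that compete with eIF4G, and by the kinase that inactivates eEF2.

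The study compared cultured neurons and astrocytes from mice homozygous for a Perk allele flanked by loxP sites (Perk is Eif2ak3). Both genotypes came from these mice: Perk KO cultures had been transduced in vitro with a lentivirus for active Cre recombinase, and WT cultures with one for inactive ΔCre. The promoter that drove either Cre is not given in the sources used here. At day in vitro 14 cultures received either 5 µg/mL tunicamycin (TM), which blocks N-linked glycosylation and so causes ER stress, or an equal volume of its solvent DMSO (control), for 24 hours per the protocol and 20 to 24 hours per the series description. Each of the 8 combinations of cell type, genotype and treatment has 3 libraries, which the labels call biological replicates without saying that they are separate cultures or animals. The p-values therefore reflect only how far these libraries spread, which may be technical.

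Libraries held 16030022 to 25934747 counts. Levels are given in CPM, the count of a gene scaled by the size of its library. Without TM, the deleted gene Eif2ak3 ranged over 33.3 to 39.5 CPM in neurons labelled WT against 5.07 to 5.82 CPM in those labelled Perk KO, and over 25.1 to 28.04 against 5.90 to 7.53 CPM in astrocytes. With TM its log2 fold change in Perk KO against WT was -3.44 in neurons and -2.66 in astrocytes, so the libraries match their labels. The 10 neuron markers summed to 6551 to 6853 CPM in control WT neuron cultures and 305 to 350.2 CPM in control WT astrocyte cultures, with 0 markers undetected in either. The 10 astrocyte markers summed to 3286 to 3535 and 2362 to 3621 CPM, so the neuron cultures held astrocyte transcripts at a similar summed level. Single markers differed, and by the test used below 5 of the 10 were lower in the neuron cultures and 3 higher (log2 -2.45 to 3). With TM the sums of the astrocyte markers were 963 to 1064 CPM in WT neurons, 647 to 737 CPM in WT astrocytes, 3274 to 4321 CPM in Perk KO neurons and 1935 to 2586 CPM in Perk KO astrocytes. The neuron markers stood at 2890.5 to 3072 CPM in TM-treated WT neurons. The part of these shifts in the results below was not tested, and in bulk cultures fewer cells of a type and less RNA per cell cannot be told apart.

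With TM, translation factor genes rose in WT cultures of both cell types, more widely in astrocytes, and mostly did not in Perk KO cultures. In WT astrocytes 31 of the 42 were higher with TM (73.8%, against 25.0% of all genes tested) and 3 were lower (against 27.7% of all genes), and the median log2 change was 0.52 against -0.01 over all genes. In WT neurons 20 were higher (47.6%, against 27.0% of all genes) and 3 lower (against 24.8%), with a median of 0.28 against 0.04. In Perk KO neurons 4 were higher and 5 lower (against 13.1% and 10.8% of all genes), with a median of -0.05. In Perk KO astrocytes 0 were higher and 1 lower by edgeR's quasi-likelihood test (against 5.55% and 4.60%), with a median of 0.07. A call here is an adjusted p under 0.05 over all genes tested, and all 42 genes had enough counts to be tested in each comparison. The WT responses of the 2 cell types, which share no library, had 18 risers in common. These were 90% of the 20 in neurons, where 73.8% of all 42 rose in astrocytes. They were 58.1% of the 31 in astrocytes, where 47.6% of all 42 rose in neurons. The share of common risers over all genes was not counted, so how far these shares exceed it was not tested. Eif4e3 was the gene lower in both. On CPM levels scaled over all 24 libraries, the TM and control groups did not overlap for 21 of the 42 genes in WT neurons (against 60.0% of all genes), 38 in WT astrocytes (against 62.2%), 17 in Perk KO neurons (against 42.6%) and 7 in Perk KO astrocytes (against 28.0%).

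For Perk KO astrocytes the counts depend on how libraries are matched. Same-numbered astrocyte libraries deviated together, and with the replicate number as a block 9 of the 42 genes were higher with TM and 4 lower, against 14.4% and 13.8% of all genes in that fit. The largest of these rises was that of Eif4ebp1, 0.51 (adjusted p = 7.6e-05). Without the block, 4 genes were higher and 2 lower at an unadjusted p under 0.05, and DESeq2 called 1 higher and 1 lower. Leaving out control replicate 3 gave 2 rises, and the fall, that of Eif4g3, -0.44 ± 0.11 (adjusted p = 0.0395), lost its call without control replicate 1 or 2 or TM replicate 1 or 2 (adjusted p = 0.0911 to 0.181). In Perk KO neurons the rises numbered 2 without control replicate 1 and 8 without TM replicate 2, and the falls numbered 3 when either of control replicates 1 and 2 was left out, 9 when TM replicate 1 was, and 10 when TM replicate 2 was. In WT neurons the falls numbered 6 without control replicate 3 and 1 without TM replicate 1. Here and below, counts with a library left out, with DESeq2 or after GC correction are given without the share of all genes. That share may move too, so these counts do not describe the 42 genes alone.

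In neurons the counts also depend on the scaling. Fold changes are scaled over the libraries compared and CPM levels over all 24. For TM in WT neurons the log2 ratio of mean CPM minus the log2 fold change had a median of -0.15 over all genes, against -0.06 to 0.02 in the other comparisons of 2 groups, so CPM levels of TM-treated WT neurons look lower against their controls than the fold changes do. Fold changes were therefore also fitted with the scaling over all libraries, an alternative chosen after seeing the data. It gave 15 rises and 6 falls among the 42 genes in WT neurons, and over all genes 3208 rises and 4890 falls in place of 4203 and 3852. The rises of Eef1b2, 0.30 (adjusted p = 0.0662), Eef1d, 0.15 (adjusted p = 0.254), Eef2, 0.26 (adjusted p = 0.101), Eif3b, 0.12 (adjusted p = 0.329), and Eif3m, 0.14 (adjusted p = 0.29), were no longer called. Those of Eef1d, Eif3b and Eif3m were also lost with DESeq2 (adjusted p = 0.0793, 0.101 and 0.0945) and with its size factors (adjusted p = 0.0629, 0.0811 and 0.0708). The falls of Eef1a2, -0.41 (adjusted p = 0.0156), Eif4a1, -0.30 (adjusted p = 0.0277), and Eif4h, -0.32 (adjusted p = 0.0371), were called with this scaling and with none of the other settings tried on all 6 libraries. In astrocytes it changed 0 calls among the 42 genes in either TM response.

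**Figure D1:**
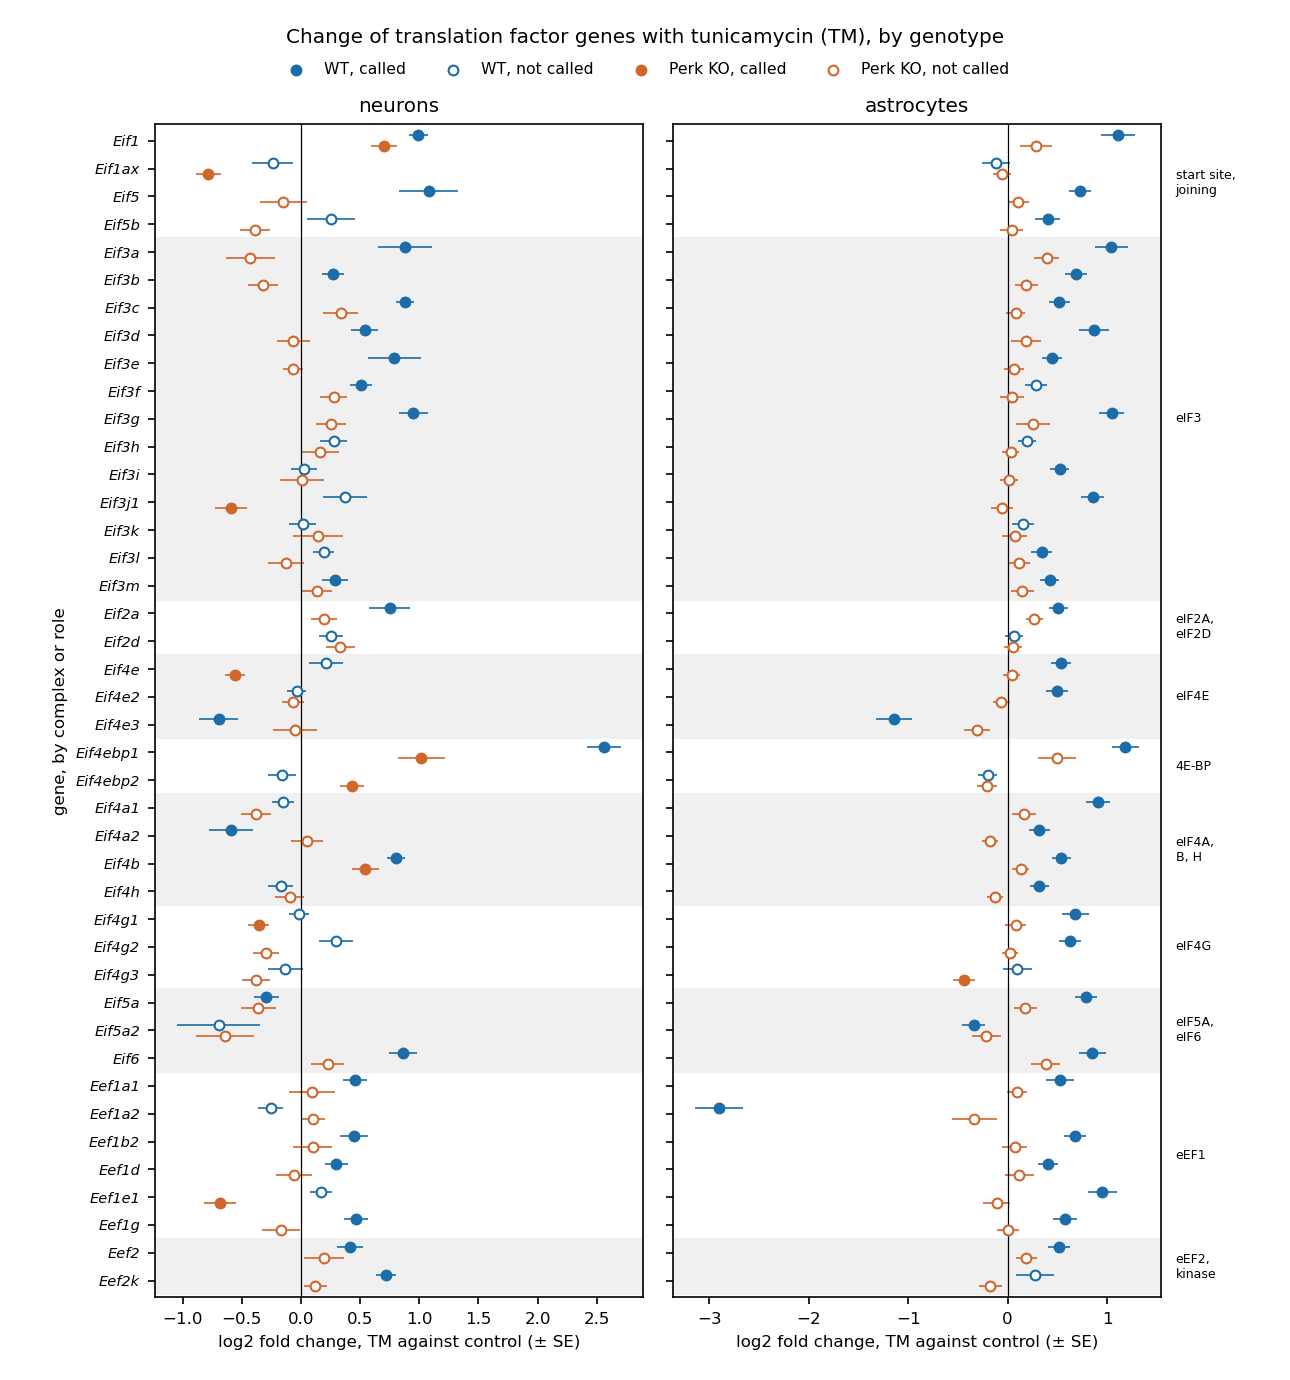
Log2 fold change with TM (x axis, ± standard error) of each of the 42 genes (y axis, grouped by complex or role) in neurons and astrocytes, for WT (blue) and Perk KO (orange); filled points were called. In astrocytes the WT points lie mostly right of 0 while the Perk KO points lie near it, and Eef1a2 stands far left at -2.91; in neurons Eif4ebp1 stands far right at 2.56.

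The summed level of the 42 genes was taken as a percent of the scaled library size. It was 1.46% to 1.63% in control WT astrocytes and 2.37% to 2.42% with TM, against 1.19% to 1.38% and 1.29% to 1.43% in Perk KO astrocytes. In neurons it was 1.47% to 1.62% (WT control), 1.74% to 1.88% (WT TM), 1.37% to 1.54% (Perk KO control) and 1.31% to 1.69% (Perk KO TM). The WT groups did not overlap between control and TM in either cell type, and the Perk KO groups did.

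**Figure D2:**
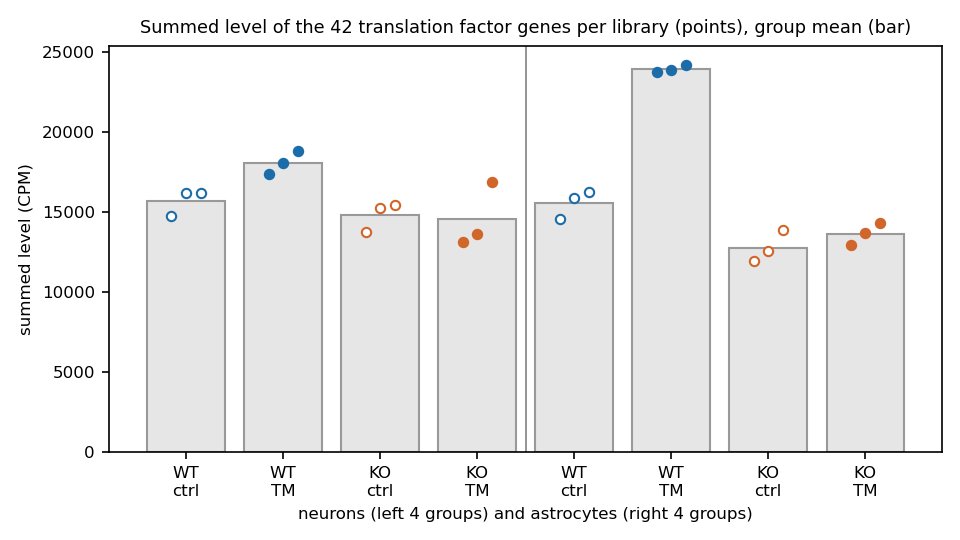
Summed level of the 42 genes (y axis, CPM) in each library (points) of the 8 groups (x axis), with the group mean as a bar; open points are controls and filled points TM. TM-treated WT astrocytes (23735 to 24209 CPM) stand above every other library.

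Whether the TM response differed between genotypes was tested as the change with TM in Perk KO minus that in WT (log2). In neurons 16 of the 42 genes had a smaller or more negative change in Perk KO (against 15.4% of all genes) and 1 a larger one (against 14.5%), with a median difference of -0.38. In astrocytes 24 had a smaller or more negative change (against 14.6% of all genes) and 2 a larger one (against 19.8%), with a median of -0.48. Over all genes the medians were -0.08 and 0.01. The gene above 0 in neurons, Eif4ebp2, lost its call without WT TM replicate 2 or Perk KO TM replicate 3 (adjusted p = 0.0565 to 0.059). The number below 0 in neurons was 9 without WT TM replicate 1. With the scaling over all libraries 9 genes were below 0 and 4 above it in neurons, and over all genes 1642 and 2997 in place of 2449 and 2304. It ended the calls of Eef1g, Eif3b, Eif3c, Eif3d, Eif4g1, Eif4g2 and Eif6 (adjusted p = 0.051 for Eif3b to 0.169 for Eif4g1), and gave calls above 0 for Eif4a2, 0.75 (adjusted p = 0.0394), Eif4e3, 0.75 (adjusted p = 0.0344), and Eef1a2, 0.47 (adjusted p = 0.0403). This genotype difference shares its libraries with the responses above, so its values, where given for a gene, stand beside those responses. They are not given for every gene.

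Among factors of start site selection, Eif1 and Eif5 rose with TM in WT cultures of both types. Eif1 encodes eIF1, which keeps the scanning ribosome from starting at wrong codons. It stood at 370.4, 374 and 348 CPM in WT control neurons, 668, 612 and 681 CPM in WT neurons with TM, 291, 279 and 247 CPM in Perk KO control neurons and 491, 383 and 420.4 CPM in Perk KO neurons with TM. TM-treated WT neurons lay above all other neuron libraries, and TM-treated Perk KO neurons lay above their own controls. The change with TM was 0.99 ± 0.08 (adjusted p = 1.99e-05) in WT and 0.70 ± 0.11 (adjusted p = 0.00452) in Perk KO neurons, and the difference between genotypes was -0.32 ± 0.13 (adjusted p = 0.0796), which did not pass but was called with the replicate block (-0.33, adjusted p = 0.0466) and after GC correction with the block (-0.28, adjusted p = 0.0345). In astrocytes Eif1 stood at 337, 395 and 526 CPM in WT control astrocytes, 827, 915 and 1003 CPM in WT astrocytes with TM, 264, 289.5 and 359 CPM in Perk KO control astrocytes and 306, 348 and 458 CPM in Perk KO astrocytes with TM. The WT groups did not overlap and the Perk KO groups did. Its change was 1.11 ± 0.17 (adjusted p = 0.00118) in WT and 0.28 ± 0.16 (adjusted p = 0.35) in Perk KO astrocytes, and the difference, -0.84 ± 0.26 (adjusted p = 0.0254), lost its call without WT control replicate 1 or 2, WT TM replicate 3, Perk KO control replicate 3 or Perk KO TM replicate 1 or 2 (adjusted p = 0.0552 to 0.0648). The replicate block gave a Perk KO rise of 0.27 (adjusted p = 0.00293). Of the positions of 100 bases along its longest transcript, 19.2% also occur in other genes, so its counts are uncertain.

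Eif5 encodes the activator of GTP hydrolysis by eIF2. It stood at 158, 117 and 231 CPM in WT control neurons, 316, 395 and 258 CPM in WT neurons with TM, 342, 323 and 336 CPM in Perk KO control neurons and 205, 374 and 299.5 CPM in Perk KO neurons with TM. Among WT neurons the TM libraries lay above the controls, and control Perk KO neurons already lay within the range of TM-treated WT neurons. The change was 1.08 ± 0.25 (adjusted p = 0.00612) in WT and -0.15 ± 0.20 (adjusted p = 0.626) in Perk KO neurons. The difference of -1.26 ± 0.36 (adjusted p = 0.0216) lost its call without WT control replicate 1 or WT TM replicate 2 (adjusted p = 0.0513 to 0.0555). In astrocytes Eif5 stood at 511, 625 and 595 CPM in WT control astrocytes, 916, 991 and 997 CPM in WT astrocytes with TM, 415, 487 and 458 CPM in Perk KO control astrocytes and 447, 527 and 497 CPM in Perk KO astrocytes with TM. There TM-treated WT cultures lay above all other libraries and the Perk KO groups overlapped, with 0.73 ± 0.11 (adjusted p = 0.00123) in WT, 0.11 ± 0.10 (adjusted p = 0.591) in Perk KO and a difference of -0.64 ± 0.15 (adjusted p = 0.00639).

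The other genes of this step moved less. Eif1ax, which encodes the X-linked eIF1A, fell with TM in Perk KO neurons, -0.78 ± 0.11 (adjusted p = 0.00233), from 253 to 263 CPM in the controls to 133 to 166 CPM. In WT neurons its change was -0.24 ± 0.17 and in astrocytes -0.12 ± 0.14 (WT) and -0.05 ± 0.09 (Perk KO), and these 3 did not pass. The WT neuron change was called after GC correction (-0.44, adjusted p = 0.00116) and after GC correction with the block (-0.44, adjusted p = 0.00268), and that of WT astrocytes after GC correction with the block (-0.33, adjusted p = 0.00385). Eif5b, the joining GTPase, had 0.26 ± 0.20 (adjusted p = 0.321) in WT neurons and 0.40 ± 0.13 (adjusted p = 0.0317) in WT astrocytes. The latter call was lost without control replicate 1, 2 or 3 or TM replicate 2 or 3 (adjusted p = 0.0572 to 0.108), and after GC correction the change was 0.28 (adjusted p = 0.0885). Its genotype difference in astrocytes passed with the replicate block, -0.37 (adjusted p = 0.0193), and not without it. Eif5b shares 1643 exon bases with the opposite-strand gene Rev1, whose counts were 19.0% of those of Eif5b. The kit does not mark the strand, so the counts of Eif5b are uncertain.

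eIF3 is the largest initiation factor, a scaffold on the small subunit. With TM 8 of its 13 genes rose in WT neurons (against 27.0% of all genes) and 10 in WT astrocytes (against 25.0%), with medians of 0.37 and 0.52. In Perk KO neurons Eif3j1 fell, -0.59 ± 0.14 (adjusted p = 0.0175), a call lost without control replicate 1 or 2 or TM replicate 3 (adjusted p = 0.0643 to 0.0808), the other 12 did not pass, and the median was 0.01. There Eif3b was called in the fit on the 12 libraries of the cell type (-0.32, adjusted p = 0.0467), after GC correction (-0.41, adjusted p = 0.0198) and after GC correction with the block (-0.41, adjusted p = 0.0228). In Perk KO astrocytes the 13 genes lay between -0.06 and 0.39, and none was called by edgeR's quasi-likelihood test without the block. With it Eif3a, 0.40 (adjusted p = 0.000158), Eif3b, 0.19 (adjusted p = 0.0314), and Eif3g, given below, were called, and DESeq2 called Eif3a, 0.39 (adjusted p = 0.0398). The genotype difference was below 0 and called for 7 of the 13 in neurons (against 15.4% of all genes) and 8 in astrocytes (against 14.6%). With the replicate block that of Eif3m in astrocytes was called too, -0.29 (adjusted p = 0.0295). In astrocytes the calls of Eif3a, Eif3b, Eif3c, Eif3d and Eif3e were each lost without at least 1 library, and those of Eif3g, Eif3i and Eif3j1 were not. In neurons those of Eif3c, Eif3d and Eif3e were lost in this way. The neuron calls of Eif3b, Eif3c and Eif3d and the WT neuron rises of Eif3b and Eif3m ended with the scaling over all libraries. The WT astrocyte rises of Eif3e (adjusted p = 0.128) and Eif3m (adjusted p = 0.15) ended after GC correction. That of Eif3l was lost without control replicate 2 or 3 or TM replicate 3 (adjusted p = 0.0839 to 0.0922). The WT neuron rise of Eif3e was lost without TM replicate 2 (adjusted p = 0.0624), and that of Eif3m after GC correction (adjusted p = 0.739). The replicate block ended both.

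Eif3g, which encodes an RNA-binding subunit, stood at 73.1, 66.5 and 52.2 CPM in WT control neurons, 121, 106 and 107 CPM in WT neurons with TM, 55.3, 54.6 and 49.8 CPM in Perk KO control neurons and 72.1, 53.2 and 60.3 CPM in Perk KO neurons with TM. All neuron libraries of TM-treated WT cultures lay above the rest. In astrocytes Eif3g stood at 77.03, 86.04 and 101 CPM in WT control astrocytes, 165, 185 and 203 CPM in WT astrocytes with TM, 45.9, 50.7 and 62.8 CPM in Perk KO control astrocytes and 49.7, 64.4 and 76.7 CPM in Perk KO astrocytes with TM, and again the TM-treated WT libraries lay above all others. The change with TM was 0.95 ± 0.12 (adjusted p = 0.000311) in WT neurons and 1.04 ± 0.13 (adjusted p = 0.000422) in WT astrocytes. In Perk KO it was 0.26 ± 0.12 and 0.25 ± 0.17 and, with the replicate block in astrocytes, 0.25 (adjusted p = 0.0166), and the genotype difference was -0.73 ± 0.18 (adjusted p = 0.00985) in neurons and -0.81 ± 0.23 (adjusted p = 0.0183) in astrocytes.

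Eif3d encodes a subunit that can itself bind the mRNA cap. It stood at 86.99, 87.5 and 68.3 CPM in WT control neurons, 117, 98.2 and 102 CPM in WT neurons with TM, 66.9, 63.4 and 54.2 CPM in Perk KO control neurons and 66.3, 47.3 and 58.3 CPM in Perk KO neurons with TM. In WT the TM libraries lay above the controls, whereas both Perk KO groups lay below all WT libraries. In astrocytes Eif3d stood at 99.5, 111 and 131 CPM in WT control astrocytes, 171, 223 and 239 CPM in WT astrocytes with TM, 53.3, 64.1 and 79.6 CPM in Perk KO control astrocytes and 65.1, 76.8 and 82.4 CPM in Perk KO astrocytes with TM, with the same order of groups. With TM, the log2 fold change of Perk KO against WT was -0.90 ± 0.15 (adjusted p = 0.0018) in neurons and -1.46 ± 0.15 (adjusted p = 7.37e-05) in astrocytes. Eif3b, which encodes a core subunit of the complex, stood at 285, 299 and 239 CPM in WT control neurons, 316, 283 and 298 CPM in WT neurons with TM, 221, 207 and 195 CPM in Perk KO control neurons and 186, 134 and 167 CPM in Perk KO neurons with TM. The WT neuron groups overlapped, and its rise there of 0.28 ± 0.09 (adjusted p = 0.0352) lost its call without control replicate 1, 2 or 3 or TM replicate 1 or 3 (adjusted p = 0.0564 to 0.12). In astrocytes Eif3b stood at 252, 279.8 and 290.1 CPM in WT control astrocytes, 399.6, 457 and 483 CPM in WT astrocytes with TM, 171, 182 and 215 CPM in Perk KO control astrocytes and 191, 221 and 236 CPM in Perk KO astrocytes with TM, and the WT groups did not overlap. With TM, Perk KO against WT was -0.89 ± 0.14 (adjusted p = 0.00135) in neurons and -1.01 ± 0.12 (adjusted p = 0.00015) in astrocytes.

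Subunits of eIF3 did not move evenly. Eif3a, the largest subunit, had 0.88 ± 0.23 (adjusted p = 0.0108) in WT neurons and 1.04 ± 0.17 (adjusted p = 0.0015) in WT astrocytes, and Eif3c, a core subunit, 0.88 ± 0.08 (adjusted p = 3.43e-05) and 0.52 ± 0.11 (adjusted p = 0.0049). Eif3k, a peripheral subunit, had 0.01 ± 0.12 and 0.15 ± 0.11, and Eif3h had 0.28 ± 0.12 and 0.20 ± 0.09, which did not pass. Eif3h was called with the replicate block (0.29, adjusted p = 0.0491) and after GC correction with the block (0.23, adjusted p = 0.0168) in WT neurons and with the replicate block (0.20, adjusted p = 0.0323), in the fit on the 12 libraries of the cell type (0.21, adjusted p = 0.0422) and after GC correction with the block (0.22, adjusted p = 0.0186) in WT astrocytes, and Eif3k in WT astrocytes after GC correction with the block (0.27, adjusted p = 0.00695). Eif3i rose in WT astrocytes, 0.52 ± 0.10 (adjusted p = 0.00304), and had 0.03 ± 0.11 in WT neurons. Eif3f rose in WT neurons, 0.50 ± 0.09 (adjusted p = 0.00208), and had 0.28 ± 0.11 (adjusted p = 0.066) in WT astrocytes, where it was called with DESeq2 (0.30, adjusted p = 0.0479), with the replicate block (0.29, adjusted p = 0.00653), in the fit on the 12 libraries of the cell type (0.30, adjusted p = 0.0478), after GC correction (0.38, adjusted p = 0.0246) and after GC correction with the block (0.38, adjusted p = 0.00118). For Eif3j1 36.0% of 100-base positions also occur in Eif3j2, and its exons overlap those of the opposite-strand gene Spg11 in libraries whose kit does not mark the strand, so its values are uncertain.

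Of the alternative initiator tRNA factors, Eif2a rose with TM in WT neurons, 0.75 ± 0.17 (adjusted p = 0.00603), and WT astrocytes, 0.51 ± 0.10 (adjusted p = 0.00308). Its change in Perk KO was 0.20 ± 0.11 and 0.27 ± 0.09 without a call, and the genotype differences of -0.59 ± 0.22 (adjusted p = 0.0614) and -0.26 ± 0.12 (adjusted p = 0.115) did not pass. The change in Perk KO neurons was called after GC correction (0.46, adjusted p = 0.021) and after GC correction with the block (0.45, adjusted p = 0.0229). With the replicate block the values in astrocytes were 0.27 (adjusted p = 0.00717) in Perk KO and -0.26 (adjusted p = 0.0431) for the difference. Eif2a shares 72 exon bases with the opposite-strand gene Serp1, whose counts were 559% of those of Eif2a. Eif2d lay between 0.06 and 0.33 in the 4 TM responses, and 0 of these passed on the 6 libraries compared (each change in neurons passed in the fit on the 12 neuron libraries, 0.29 (adjusted p = 0.0339) in WT and 0.33 (adjusted p = 0.0276) in Perk KO).

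At the cap, Eif4e and Eif4e2 rose with TM in WT astrocytes and were not called in WT neurons. Eif4e encodes the main cap-binding protein. It stood at 105, 108 and 132 CPM in WT control neurons, 128, 136 and 97.3 CPM in WT neurons with TM, 131, 133 and 123 CPM in Perk KO control neurons and 89.3, 84.3 and 82.4 CPM in Perk KO neurons with TM. TM-treated Perk KO neurons lay below all other neuron libraries, and the WT groups overlapped. The change was 0.21 ± 0.14 (adjusted p = 0.249) in WT neurons and -0.56 ± 0.08 (adjusted p = 0.00329) in Perk KO neurons, and the difference was -0.80 ± 0.18 (adjusted p = 0.00585). Both calls ended after GC correction, at -0.27 (adjusted p = 0.233) and -0.24 (adjusted p = 0.374). In astrocytes Eif4e stood at 134, 150.4 and 152 CPM in WT control astrocytes, 203, 231 and 207 CPM in WT astrocytes with TM, 104, 106 and 101 CPM in Perk KO control astrocytes and 110.1, 108 and 102 CPM in Perk KO astrocytes with TM. TM-treated WT astrocytes lay above the rest, with 0.54 ± 0.10 (adjusted p = 0.00312) in WT, 0.04 ± 0.08 in Perk KO and a difference of -0.51 ± 0.12 (adjusted p = 0.00658).

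Eif4e2 encodes 4EHP, a cap-binding protein that represses translation. It stood at 101, 103 and 94.3 CPM in WT control neurons, 91.7, 81.7 and 89.1 CPM in WT neurons with TM, 88.96, 86.9 and 78.2 CPM in Perk KO control neurons and 79.9, 74.2 and 81.99 CPM in Perk KO neurons with TM. The TM-treated WT libraries lay below their controls. The change of -0.04 ± 0.08 did not pass. With the scaling over all libraries it was -0.19 (adjusted p = 0.0996). In astrocytes Eif4e2 stood at 66.8, 74.8 and 80.04 CPM in WT control astrocytes, 94.8, 107 and 115 CPM in WT astrocytes with TM, 60.2, 65.4 and 66.7 CPM in Perk KO control astrocytes and 61.4, 59.1 and 63.8 CPM in Perk KO astrocytes with TM. There it rose in WT, 0.50 ± 0.11 (adjusted p = 0.00647), the TM-treated WT libraries lay above all others, and the genotype difference was -0.58 ± 0.14 (adjusted p = 0.0069).

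Eif4e3, the third cap-binding gene, moved the other way from most of the genes. It stood at 9.25, 8.47 and 9.23 CPM in WT control neurons, 5.75, 4.75 and 4.54 CPM in WT neurons with TM, 10.7, 9.96 and 9.04 CPM in Perk KO control neurons and 11.6, 7.73 and 8.53 CPM in Perk KO neurons with TM. The TM libraries of WT neurons lay below all other neuron libraries. In astrocytes Eif4e3 stood at 26.4, 23.7 and 27.8 CPM in WT control astrocytes, 9.23, 11.8 and 14.7 CPM in WT astrocytes with TM, 19.3, 23.9 and 20.2 CPM in Perk KO control astrocytes and 18.3, 17.2 and 15.7 CPM in Perk KO astrocytes with TM, with TM-treated WT astrocytes lowest and no overlap with any other group. Its fall was -0.69 ± 0.17 (adjusted p = 0.00755) in WT neurons and -1.15 ± 0.18 (adjusted p = 0.0013) in WT astrocytes, against -0.05 ± 0.18 and -0.31 ± 0.13 in Perk KO. The genotype difference was 0.82 ± 0.23 (adjusted p = 0.0151) in astrocytes and 0.61 ± 0.24 (adjusted p = 0.0738) in neurons. The latter was called with the scaling over all libraries, with DESeq2 (adjusted p = 0.0396), with the replicate block (adjusted p = 0.0432) and after GC correction (adjusted p = 0.0228). Its change in Perk KO astrocytes was -0.31 (adjusted p = 0.0429) with the replicate block.

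The eIF4E binding protein Eif4ebp1 (ENSMUSG00000031490, chromosome 8, positions 27260329 to 27276674 in GRCm38) had the largest rise of the 42 genes in WT neurons. Its product, 4E-BP1, competes with eIF4G for eIF4E. It stood at 30.4, 28.7 and 20.3 CPM in WT control neurons, 151, 133 and 139 CPM in WT neurons with TM, 27.1, 26.9 and 22.4 CPM in Perk KO control neurons and 65.4, 37.1 and 48.02 CPM in Perk KO neurons with TM. TM-treated WT neurons lay above all others, TM-treated Perk KO neurons lay between them and the controls, and the control genotypes overlapped. The rise was 5.90-fold in WT neurons, log2 2.56 ± 0.14 (adjusted p = 2.91e-06), and 2.02-fold in Perk KO neurons, 1.02 ± 0.20 (adjusted p = 0.00924), and the difference was -1.58 ± 0.26 (adjusted p = 0.000854). In astrocytes Eif4ebp1 stood at 106, 123 and 147 CPM in WT control astrocytes, 304, 268 and 291 CPM in WT astrocytes with TM, 50.8, 57.97 and 83.2 CPM in Perk KO control astrocytes and 73.6, 89.3 and 109 CPM in Perk KO astrocytes with TM. TM-treated WT astrocytes were again highest, and the Perk KO groups overlapped. It rose 2.27-fold in WT astrocytes, 1.18 ± 0.14 (adjusted p = 0.000306), and had 0.50 ± 0.19 (adjusted p = 0.158) in Perk KO astrocytes. The difference in astrocytes was -0.70 ± 0.26 (adjusted p = 0.0571). It was called with no filter on low counts (-0.70, adjusted p = 0.0454), with DESeq2's size factors (-0.72, adjusted p = 0.048), with DESeq2 (-0.72, adjusted p = 0.0279), with the replicate block (-0.71, adjusted p = 0.00339) and after GC correction with the block (-0.75, adjusted p = 0.00284).

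Its paralogue Eif4ebp2, known as the main 4E-BP of the brain, was called in neither WT response without the replicate block. Eif4ebp2 stood at 82.3, 87.6 and 91.6 CPM in WT control neurons, 61.8, 67.2 and 82.3 CPM in WT neurons with TM, 78.6, 83.3 and 86.7 CPM in Perk KO control neurons and 100.4, 110.4 and 116 CPM in Perk KO neurons with TM. In neurons the TM-treated Perk KO libraries were the highest, above all WT libraries. In astrocytes Eif4ebp2 stood at 74.6, 71.9 and 71.97 CPM in WT control astrocytes, 66.5, 65.03 and 60.9 CPM in WT astrocytes with TM, 123, 105 and 99.6 CPM in Perk KO control astrocytes and 92.7, 90.6 and 101 CPM in Perk KO astrocytes with TM. There both Perk KO groups lay above all WT libraries. With TM it had -0.16 ± 0.12 (adjusted p = 0.296) in WT neurons and, with the replicate block, -0.20 (adjusted p = 0.027) in WT astrocytes. It rose by 0.43 ± 0.10 (adjusted p = 0.0182) in Perk KO neurons, and that call was lost without control replicate 1 or 2 or TM replicate 3 (adjusted p = 0.0743 to 0.0845). The genotype difference in neurons was 0.56 ± 0.15 (adjusted p = 0.016). Among TM-treated cultures Perk KO exceeded WT by 0.62 ± 0.13 (adjusted p = 0.0056) in neurons and 0.60 ± 0.10 (adjusted p = 0.000659) in astrocytes. For Eif4ebp1 the same comparisons gave -1.50 ± 0.20 (adjusted p = 0.000626) and -1.63 ± 0.15 (adjusted p = 3.71e-05).

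The helicase genes Eif4a1 and Eif4a2 rose with TM in WT astrocytes, and in WT neurons the former was not called and the latter fell. Eif4a1 encodes the eIF4A isoform typical of dividing cells and Eif4a2 one that is abundant in brain. Eif4a1 stood at 497, 512 and 420.0 CPM in WT control neurons, 402, 362 and 394 CPM in WT neurons with TM, 365, 359 and 334 CPM in Perk KO control neurons and 304, 216 and 274 CPM in Perk KO neurons with TM. In both genotypes the TM libraries lay below the controls, but neither change passed. It was -0.15 ± 0.09 (adjusted p = 0.188) in WT and -0.38 ± 0.13 (adjusted p = 0.0671) in Perk KO, and the WT fall was called with the scaling over all libraries. That of Perk KO was called with DESeq2 (-0.39, adjusted p = 0.0404) and in the fit on the 12 libraries of the cell type (-0.38, adjusted p = 0.0211). In astrocytes Eif4a1 stood at 374, 435 and 477 CPM in WT control astrocytes, 743, 819 and 884 CPM in WT astrocytes with TM, 261, 266 and 329 CPM in Perk KO control astrocytes and 287, 322 and 353 CPM in Perk KO astrocytes with TM. TM-treated WT astrocytes lay above all others, with 0.91 ± 0.12 (adjusted p = 0.000702) in WT, 0.17 ± 0.12 in Perk KO and a difference of -0.76 ± 0.18 (adjusted p = 0.00659). Of its 100-base positions, 22.4% also occur in other genes.

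Eif4a2 stood at 433, 340.3 and 543 CPM in WT control neurons, 275, 304 and 211 CPM in WT neurons with TM, 681, 633 and 583 CPM in Perk KO control neurons and 532, 735 and 649 CPM in Perk KO neurons with TM. TM-treated WT neurons lay below all other neuron libraries and did not overlap their controls. The fall of -0.59 ± 0.19 (adjusted p = 0.028) lost its call without TM replicate 1 or 3 (adjusted p = 0.0635 to 0.0992) and with the replicate block, -0.57 (adjusted p = 0.082). In Perk KO neurons the change was 0.05 ± 0.13. Perk KO neurons held more Eif4a2 than WT with TM, 2.40-fold, 1.26 ± 0.17 (adjusted p = 0.000629). In astrocytes Eif4a2 stood at 351, 390.4 and 412 CPM in WT control astrocytes, 454, 480.5 and 522 CPM in WT astrocytes with TM, 409, 437 and 419 CPM in Perk KO control astrocytes and 383, 377 and 362 CPM in Perk KO astrocytes with TM. TM-treated WT astrocytes lay above all others. The rise there of 0.32 ± 0.11 (adjusted p = 0.0365) lost its call without control replicate 1, 2 or 3 or TM replicate 2 or 3 (adjusted p = 0.0531 to 0.111), with no filter on low counts (adjusted p = 0.0543) and after GC correction, 0.10 (adjusted p = 0.433). In Perk KO astrocytes the TM libraries lay below their controls, and the fall was called with the replicate block, -0.18 (adjusted p = 0.0416). Without the block it did not pass. The genotype difference was -0.51 ± 0.13 (adjusted p = 0.00897) in astrocytes, and in neurons 0.61 ± 0.26 (adjusted p = 0.1). The latter was called with the scaling over all libraries, with no filter on low counts (adjusted p = 0.0459), with DESeq2 (adjusted p = 0.0395) and after GC correction, 1.12 (adjusted p = 4.08e-05). The helicase cofactor gene Eif4b rose with TM in WT neurons, 0.81 ± 0.08 (adjusted p = 5.63e-05), WT astrocytes, 0.54 ± 0.10 (adjusted p = 0.0023), and Perk KO neurons, 0.55 ± 0.11 (adjusted p = 0.0112), where the call was lost without control replicate 1 or 3 (adjusted p = 0.0533 to 0.0547). Eif4h, a second cofactor, had -0.17 ± 0.10 in WT neurons, which passed only with the scaling over all libraries, and 0.32 ± 0.10 (adjusted p = 0.0241) in WT astrocytes, which was lost without control replicate 2 or 3 or TM replicate 2 (adjusted p = 0.0705 to 0.0789).

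**Figure D3:**
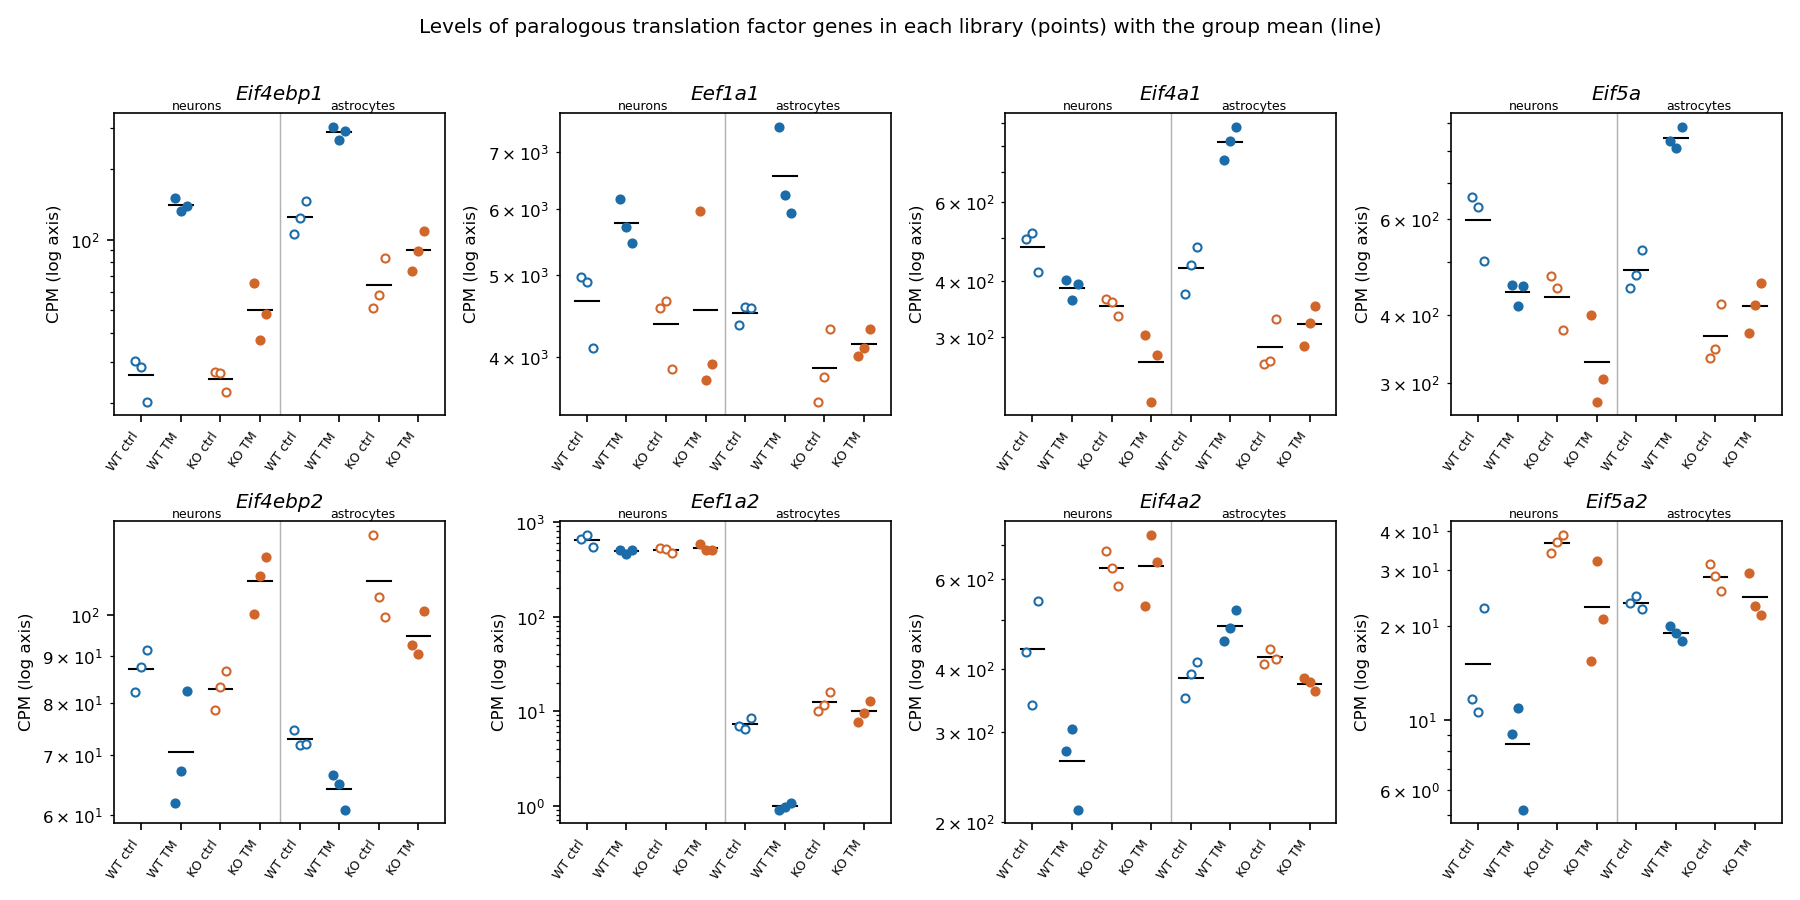
Level (y axis, CPM, log axes that differ between panels) of 8 genes that form 4 paralogous pairs, one pair per column, in each library (points, with the group mean as a line) of the 8 groups (x axis; blue WT, orange Perk KO, filled TM). Eef1a2 is near 648 CPM in WT control neurons and 0.985 CPM in TM-treated WT astrocytes; Eif4ebp1 is highest in TM-treated WT cultures while Eif4ebp2 is not.

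Of the scaffold genes, Eif4g1 and Eif4g2 rose with TM in WT astrocytes. Eif4g1, the main eIF4G, stood at 554, 635 and 595 CPM in WT control neurons, 516, 507 and 566 CPM in WT neurons with TM, 465, 482 and 479 CPM in Perk KO control neurons and 353, 347 and 385 CPM in Perk KO neurons with TM. The WT neuron groups overlapped, and TM-treated Perk KO neurons lay below all others. It had -0.02 ± 0.08 in WT neurons and -0.36 ± 0.09 (adjusted p = 0.0247) in Perk KO neurons, a call lost without control replicate 1, 2 or 3 (adjusted p = 0.0678 to 0.103). In astrocytes Eif4g1 stood at 409.5, 505 and 530.4 CPM in WT control astrocytes, 687, 856 and 804 CPM in WT astrocytes with TM, 415, 419.8 and 433 CPM in Perk KO control astrocytes and 393, 446 and 506 CPM in Perk KO astrocytes with TM. The TM-treated WT libraries lay above all others, with 0.68 ± 0.13 (adjusted p = 0.0038) in WT, 0.08 ± 0.10 in Perk KO and a difference of -0.62 ± 0.17 (adjusted p = 0.0171).

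Eif4g2 encodes DAP5, a scaffold that does not bind eIF4E. It stood at 959, 925 and 1299.5 CPM in WT control neurons, 1145, 1301 and 1093 CPM in WT neurons with TM, 1240.0, 1199.9 and 1171 CPM in Perk KO control neurons and 844, 1049 and 973 CPM in Perk KO neurons with TM. The neuron groups overlapped within WT and the Perk KO groups did not, yet neither change passed. It was 0.30 ± 0.14 (adjusted p = 0.117) in WT, called with no filter on low counts (0.30, adjusted p = 0.0411) and after GC correction with the block (0.21, adjusted p = 0.0418), and -0.29 ± 0.11 (adjusted p = 0.0977) in Perk KO. In astrocytes Eif4g2 stood at 1222, 1399 and 1289 CPM in WT control astrocytes, 2117, 2065 and 1922 CPM in WT astrocytes with TM, 1152, 1179 and 1121 CPM in Perk KO control astrocytes and 1173, 1199 and 1145 CPM in Perk KO astrocytes with TM. WT astrocytes rose without overlap by 0.62 ± 0.11 (adjusted p = 0.00262), and the genotype difference was -0.62 ± 0.12 (adjusted p = 0.00258). Eif4g3, the third scaffold gene, stood at 205, 238 and 302 CPM in WT control neurons, 191, 195 and 228 CPM in WT neurons with TM, 212, 220.1 and 237 CPM in Perk KO control neurons and 144, 183 and 176 CPM in Perk KO neurons with TM. In astrocytes Eif4g3 stood at 155, 171 and 189 CPM in WT control astrocytes, 150.0, 214 and 195 CPM in WT astrocytes with TM, 188, 201 and 162 CPM in Perk KO control astrocytes and 126, 128 and 152 CPM in Perk KO astrocytes with TM. Its WT groups overlapped in both cell types, and TM-treated Perk KO neurons lay below all other neuron libraries, whereas TM-treated Perk KO astrocytes overlapped the WT range. The WT changes of -0.13 ± 0.15 and 0.10 ± 0.14 did not pass. In Perk KO neurons its change was -0.38 ± 0.12 (adjusted p = 0.0532). The fall was called with DESeq2 (-0.39, adjusted p = 0.0321), its size factors, no filter on low counts and the scaling over all libraries. It was also called with the replicate block, after GC correction and with both (adjusted p = 0.0301 to 0.0493 over these settings). The genotype difference of Eif4g3 in astrocytes was called below 0, a call lost without, among others, WT control replicate 1 (adjusted p = 0.0951).

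Eif5a encodes eIF5A, which helps the ribosome past stretches that stall it and carries the modified lysine hypusine. It stood at 659, 632 and 503 CPM in WT control neurons, 454, 415 and 452 CPM in WT neurons with TM, 472, 447 and 376 CPM in Perk KO control neurons and 400.3, 277 and 305 CPM in Perk KO neurons with TM. With TM, WT neurons lay below their controls. The fall of -0.29 ± 0.11 (adjusted p = 0.0453) lost its call without control replicate 1 or 2 or TM replicate 1, 2 or 3 (adjusted p = 0.0782 to 0.155) and in the fit on all 12 neuron libraries (adjusted p = 0.128), and with the replicate block it was -0.28 (adjusted p = 0.0741). In astrocytes Eif5a stood at 449, 474 and 527 CPM in WT control astrocytes, 834, 811 and 886 CPM in WT astrocytes with TM, 333, 346 and 418 CPM in Perk KO control astrocytes and 371, 418 and 457 CPM in Perk KO astrocytes with TM. There TM-treated WT libraries lay above all others, with 0.79 ± 0.11 (adjusted p = 0.000728) in WT, 0.18 ± 0.12 in Perk KO and a difference of -0.62 ± 0.16 (adjusted p = 0.0106). Perk KO astrocytes gave 0.18 (adjusted p = 0.036) with the replicate block.

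The second eIF5A gene, Eif5a2, was scarcer. It stood at 11.7, 10.6 and 22.8 CPM in WT control neurons, 9.05, 10.96 and 5.20 CPM in WT neurons with TM, 34.1, 36.96 and 38.97 CPM in Perk KO control neurons and 15.4, 32.2 and 21.1 CPM in Perk KO neurons with TM. Both Perk KO groups lay above TM-treated WT neurons. Its change was -0.69 ± 0.35 (adjusted p = 0.128) in WT and -0.64 ± 0.24 (adjusted p = 0.0944) in Perk KO neurons. The WT change was called with no filter on low counts (-0.69, adjusted p = 0.0283), with DESeq2 (-0.73, adjusted p = 0.0435), after GC correction (-0.88, adjusted p = 0.00303) and after GC correction with the block (-0.87, adjusted p = 0.0139), and that of Perk KO with no filter on low counts (-0.64, adjusted p = 0.0345), with DESeq2 (-0.65, adjusted p = 0.0442) and after GC correction with the block (-0.38, adjusted p = 0.0491). In astrocytes Eif5a2 stood at 23.6, 24.9 and 22.6 CPM in WT control astrocytes, 19.99, 18.95 and 17.9 CPM in WT astrocytes with TM, 31.3, 28.8 and 25.8 CPM in Perk KO control astrocytes and 29.5, 23.1 and 21.6 CPM in Perk KO astrocytes with TM. TM-treated WT astrocytes lay lowest without overlap, and the fall of -0.34 ± 0.12 (adjusted p = 0.0372) lost its call without control replicate 1, 2 or 3 or TM replicate 2 or 3 (adjusted p = 0.0545 to 0.118) and with no filter on low counts (adjusted p = 0.115). Perk KO exceeded WT with TM by 1.43 ± 0.33 (adjusted p = 0.00893) in neurons. Eif6, which encodes a factor that keeps the large subunit from joining early, rose with TM in WT neurons, 0.86 ± 0.12 (adjusted p = 0.000412), and WT astrocytes, 0.85 ± 0.14 (adjusted p = 0.00152). Its Perk KO values were 0.23 ± 0.14 in neurons and 0.38 ± 0.15 in astrocytes, neither called, and 0.39 (adjusted p = 0.001) in astrocytes with the replicate block. The genotype difference of Eif6 in astrocytes did not pass. It was called with the replicate block (-0.48, adjusted p = 0.00181) and after GC correction (-0.655, adjusted p = 0.0142).

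The 2 genes for eEF1A, the protein that carries aminoacyl-tRNA to the ribosome, behaved unlike each other. Eef1a1, the widespread isoform, stood at 4976, 4911 and 4098 CPM in WT control neurons, 6152, 5706 and 5465 CPM in WT neurons with TM, 4572, 4664 and 3871 CPM in Perk KO control neurons and 5966, 3757 and 3916 CPM in Perk KO neurons with TM. The WT neuron groups did not overlap, and 1 TM-treated Perk KO neuron library (replicate 1) stood well above the other 2. In astrocytes Eef1a1 stood at 4363, 4579.7 and 4565 CPM in WT control astrocytes, 7506, 6235 and 5932 CPM in WT astrocytes with TM, 3538, 3788 and 4320.5 CPM in Perk KO control astrocytes and 4012, 4101 and 4311 CPM in Perk KO astrocytes with TM. TM-treated WT astrocytes lay above all others. It rose by 0.46 ± 0.10 (adjusted p = 0.00518) in WT neurons and 0.53 ± 0.14 (adjusted p = 0.0139) in WT astrocytes, where the call was lost without control replicate 2 (adjusted p = 0.055). In Perk KO it had 0.10 ± 0.20 and 0.09 ± 0.10. Of its 100-base positions 26.7% also occur in other genes.

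Eef1a2 (ENSMUSG00000016349, chromosome 2, positions 181147653 to 181157014 in GRCm38), the isoform known from neurons and muscle, stood at 668, 733 and 542 CPM in WT control neurons, 499.8, 460.2 and 505 CPM in WT neurons with TM, 529.8, 522 and 465 CPM in Perk KO control neurons and 579, 501 and 508 CPM in Perk KO neurons with TM. TM-treated WT neurons lay below their controls, and the change of -0.26 ± 0.11 (adjusted p = 0.0728) passed only with the scaling over all libraries. In astrocyte cultures it stood at 6.99, 6.46 and 8.55 CPM in WT control astrocytes, 0.911, 0.975 and 1.07 CPM in WT astrocytes with TM, 10.1, 11.6 and 15.8 CPM in Perk KO control astrocytes and 7.59, 9.49 and 12.8 CPM in Perk KO astrocytes with TM. TM-treated WT astrocytes lay far below every other library, with a lowest count of 16 reads. Every fold change or difference of Eef1a2 that uses these libraries rests on few reads, so its size is uncertain. The fall was 7.49-fold, log2 -2.91 ± 0.24 (adjusted p = 7.82e-05), against -0.33 ± 0.23 in Perk KO astrocytes (adjusted p = 0.443) and -0.34 (adjusted p = 0.0487) with the replicate block, and the difference was 2.56 ± 0.34 (adjusted p = 0.000184). With TM it was 10.3-fold higher in Perk KO than in WT astrocytes. In the same WT astrocyte libraries the 10 neuron markers summed to 305 to 350.2 CPM in controls and 256 to 361 CPM with TM, which overlap. Single neuron markers moved, and of the 8 tested 5 were called lower with TM and 2 higher (log2 -2.59 to 1.97, median -0.61). The 10 oligodendrocyte lineage markers summed to 400.5 to 420.4 CPM in controls and 101 to 106 CPM with TM, with 2 of them at 0 counts with TM. The part of other cells in the fall of Eef1a2 was not tested.

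The other eEF1 genes encode the exchange factor for eEF1A (Eef1b2, Eef1d, Eef1g) and a subunit of the aminoacyl-tRNA synthetase complex (Eef1e1). Eef1b2 rose in WT neurons, 0.45 ± 0.12 (adjusted p = 0.0106), and WT astrocytes, 0.68 ± 0.11 (adjusted p = 0.00183), and Eef1g likewise, 0.47 ± 0.10 (adjusted p = 0.00438) and 0.58 ± 0.12 (adjusted p = 0.00584). The WT neuron rises of Eef1b2 and Eef1d were not called with the scaling over all libraries. Eef1d had 0.30 ± 0.10 (adjusted p = 0.0301) in WT neurons, lost without control replicate 1, 2 or 3 or TM replicate 1 (adjusted p = 0.0616 to 0.118), and 0.41 ± 0.10 (adjusted p = 0.0118) in WT astrocytes, lost without control replicate 2 (adjusted p = 0.0545). Eef1e1 levels were 52.1, 51.9 and 50.3 CPM in control and 35.8, 25.5 and 32.2 CPM in TM-treated Perk KO neurons, and 39.1, 45.8 and 52.7 CPM in control and 77.2, 87.8 and 105 CPM in TM-treated WT astrocytes. The groups did not overlap in either. It fell with TM in Perk KO neurons, -0.68 ± 0.13 (adjusted p = 0.00932), and rose in WT astrocytes, 0.95 ± 0.15 (adjusted p = 0.00122). The genotype difference was -0.89 ± 0.15 (adjusted p = 0.00113) in neurons and -1.08 ± 0.21 (adjusted p = 0.0021) in astrocytes. Of the 100-base positions of Eef1g, 49.4% also occur in other genes, so its counts are uncertain.

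For translocation, Eef2 rose in WT neurons, 0.41 ± 0.11 (adjusted p = 0.0141), a call lost without TM replicate 1 (adjusted p = 0.053) and with the scaling over all libraries, and in WT astrocytes, 0.52 ± 0.11 (adjusted p = 0.00491). Eef2k encodes the kinase that phosphorylates and inactivates eEF2. Its levels were 45.5, 51.4 and 48.7 CPM in control and 73.4, 73.2 and 69.1 CPM in TM-treated WT neurons. In Perk KO neurons they were 43.6, 46.9 and 44.6 CPM without TM and 51.5, 46.2 and 45.6 CPM with it. The WT libraries with TM lay above all other neuron libraries. It rose in WT neurons, 0.72 ± 0.09 (adjusted p = 0.00018), had 0.12 ± 0.10 in Perk KO neurons, and the difference was -0.63 ± 0.12 (adjusted p = 0.00169). In WT astrocytes it had 0.28 ± 0.19 (adjusted p = 0.249), and 0.26 (adjusted p = 0.0206) with the replicate block, which was called. The genotype differences of Eef2 and Eef2k in astrocytes did not pass. With the replicate block they were called, -0.34 (adjusted p = 0.0207) for Eef2 and -0.455 (adjusted p = 0.0126) for Eef2k. The block also gave Eef2 a rise of 0.19 (adjusted p = 0.0385) in Perk KO astrocytes.

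The promoters of the 42 genes were searched on both strands for motifs of stress-responsive factors. The motifs were TGATGNAA, the composite element bound by C/EBP-ATF heterodimers such as those of ATF4, and the ER stress elements ERSE and ERSE-II, which ATF6 and its partners bind. RefSeq promoters (GRCm38.p6, 250 bases before to 50 after the start) were present for 33 of the 42 members. The genes Eif3i, Eif3h, Eif6, Eif4ebp1, Eif3e, Eef1d, Eef1g, Eif4e3 and Eif4g2 had no entry in the table used. These 33 had 44 promoters. The first motif was found in 1 of the 44, a promoter of Eef2k, and in 3.97% of all 32851 promoters. The other 2 motifs were found in 0 of the 44 and in 0.119% and 0.0365% of all promoters. The RefSeq start of this Eef2k promoter lies inside the deposited span of the gene, chromosome 7, positions 120842831 to 120907450. The stretch around this single match is shown, chr7:120851085-120851132 on the plus strand, with the match in capitals, 84 bases before that start and with the motif read on the minus strand.
Eef2k: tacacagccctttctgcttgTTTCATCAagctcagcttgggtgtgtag
A match describes letters in this window only. The values of Eef2k, given above, include a genotype difference of -0.63 in neurons.

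Perk KO and WT cultures were next compared within each treatment. With TM, 35 of the 42 genes were lower in Perk KO astrocytes than in WT (against 31.2% of all genes) and 4 were higher (against 32.1%), with a median of -0.65 against 0.01 over all genes. The higher ones were Eef1a2, 3.36, Eif4ebp2, 0.60, Eif4e3, 0.56, and Eif5a2, 0.42, and those not called were Eif3k, Eif2d and Eif1ax (after GC correction Eif3k was called at -0.28 (adjusted p = 0.0373) and Eif1ax at 0.28 (adjusted p = 0.0397)). The lowest were Eef1e1, -1.71 ± 0.14 (adjusted p = 2.45e-05), Eif4ebp1 and Eif3g, -1.50 ± 0.16 (adjusted p = 9.3e-05). The calls of Eif4e3 and Eif5a2 were lost without WT replicate 1 or 2 or Perk KO replicate 1 or 2 (adjusted p = 0.0554 to 0.0833) and without WT replicate 2 or 3 or Perk KO replicate 1 or 2 (adjusted p = 0.0586 to 0.126) respectively, that of Eif5a2 also with no filter on low counts (adjusted p = 0.0662), and 2 genes were called higher without WT replicate 2, Perk KO replicate 1 or Perk KO replicate 2. In TM-treated neurons 16 were lower in Perk KO (against 19.4% of all genes) and 4 higher (against 20.7%), with a median of -0.32. The higher ones were Eif5a2, Eif4a2, Eif4e3 and Eif4ebp2, and Eif4e3, 0.88 ± 0.22 (adjusted p = 0.0124), lost its call without WT replicate 2 or 3 (adjusted p = 0.0508 to 0.0513). Eif5a, -0.44 ± 0.15 (adjusted p = 0.047), and Eif4e, -0.51 ± 0.13 (adjusted p = 0.0168), were among the lower ones and lost their calls without WT replicate 1, 2 or 3 or Perk KO replicate 2 or 3 (adjusted p = 0.083 to 0.151) and without WT replicate 1 or 2 or Perk KO replicate 3 (adjusted p = 0.0624 to 0.0708). With the replicate block 22 were lower and 5 higher in TM-treated Perk KO neurons, against 22.8% and 24.0% of all genes in that fit. The added lower genes were Eef1b2, Eef1d, -0.44 (adjusted p = 0.00983), Eif3a, -0.52 (adjusted p = 0.023), Eif4b, Eif4g2 and Eif4g3, and the added higher one Eif1ax, 0.32 (adjusted p = 0.0278). In the same comparisons 9 of the 10 astrocyte markers were higher in TM-treated Perk KO astrocytes (median log2 1.86) and 10 of 10 in TM-treated Perk KO neurons (median 1.81), and their part in the result was not tested. The TM-treated genotypes did not overlap for 38 of the 42 genes in astrocytes (against 69.7% of all genes) and 24 in neurons (against 53.3%).

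Without TM fewer genes were called, and each call was lost without at least 1 library. In control astrocytes 11 of the 42 were lower in Perk KO (against 10.2% of all genes) and 2 higher (against 4.71%), with a median of -0.25. The lower ones included Eif4ebp1, -0.95 ± 0.20 (adjusted p = 0.0197), Eif6, -0.80 ± 0.15 (adjusted p = 0.0164), Eif3d, -0.78 ± 0.16 (adjusted p = 0.0212), Eif3a, -0.72 ± 0.17 (adjusted p = 0.027), and Eef1e1, -0.66 ± 0.15 (adjusted p = 0.0268), and the higher ones were Eef1a2, 0.78 ± 0.21 (adjusted p = 0.0408), and Eif4ebp2, 0.60 ± 0.10 (adjusted p = 0.0126). The number lower was 0 without WT replicate 2 or Perk KO replicate 2, 1 without WT replicate 3 or Perk KO replicate 1 and 15 without WT replicate 1. The number higher was 0 without WT replicate 2 or 3 and 1 without each of the Perk KO replicates. Shares of all genes with a library left out are not given here. With the replicate block 20 were lower and 3 higher, against 19.6% and 18.1% of all genes in that fit.

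In control neurons 8 of the 42 were higher in Perk KO (against 12.2% of all genes) and 5 lower (against 9.16%), with a median of -0.10. The higher ones were Eif5a2, 1.35 ± 0.27 (adjusted p = 0.0139), Eif5, 1.04 ± 0.22 (adjusted p = 0.0154), Eif1ax, 0.82 ± 0.15 (adjusted p = 0.0119), Eif3a, Eif3e, Eif3j1, Eif2a and Eif4a2, and the lower ones Eif5a, -0.41 ± 0.12 (adjusted p = 0.0408), Eif4a1, Eif1, Eif3b and Eif4g1. The number higher was 12 without WT replicate 3, 1 without WT replicate 1 or Perk KO replicate 2, 4 without Perk KO replicate 1 and 0 without Perk KO replicate 3. The number lower was 13 without WT replicate 3, 1 without Perk KO replicate 1 and 0 without each of the other 4 libraries. Shares of all genes with a library left out, or after the GC correction below, are not given here. With the replicate block 9 were lower and 9 higher, against 13.9% and 16.6% of all genes in that fit. Markers of cell types also differed between these groups. Of the fibroblast and mural markers 6 of 8 were higher in Perk KO (summed 448 to 471 CPM in WT and 458 to 604 CPM in Perk KO), of the microglia markers 3 of the 8 tested (22.4 to 45.6 and 54.2 to 82.6 CPM) and of the astrocyte markers 4 of 10 (3286 to 3535 and 4104 to 4342 CPM). Of the neuron markers 6 of 10 were lower (6551 to 6853 and 4974 to 5629.8 CPM). Their part in the result was not tested. With the scaling over all libraries 8 were higher and 8 lower, and over all genes 1838 and 2162 in place of 1927 and 1443. When counts were corrected for transcript GC content, 3 were higher and 3 lower, and Eif2a, -0.004 (adjusted p = 0.984), Eif3e, -0.10 (adjusted p = 0.499), and Eif4a2, -0.078 (adjusted p = 0.586), were no longer above 0. The calls of Eif1ax, 0.15 (adjusted p = 0.174), and Eif5a, -0.25 (adjusted p = 0.091), also ended with this correction.

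**Figure D4:**
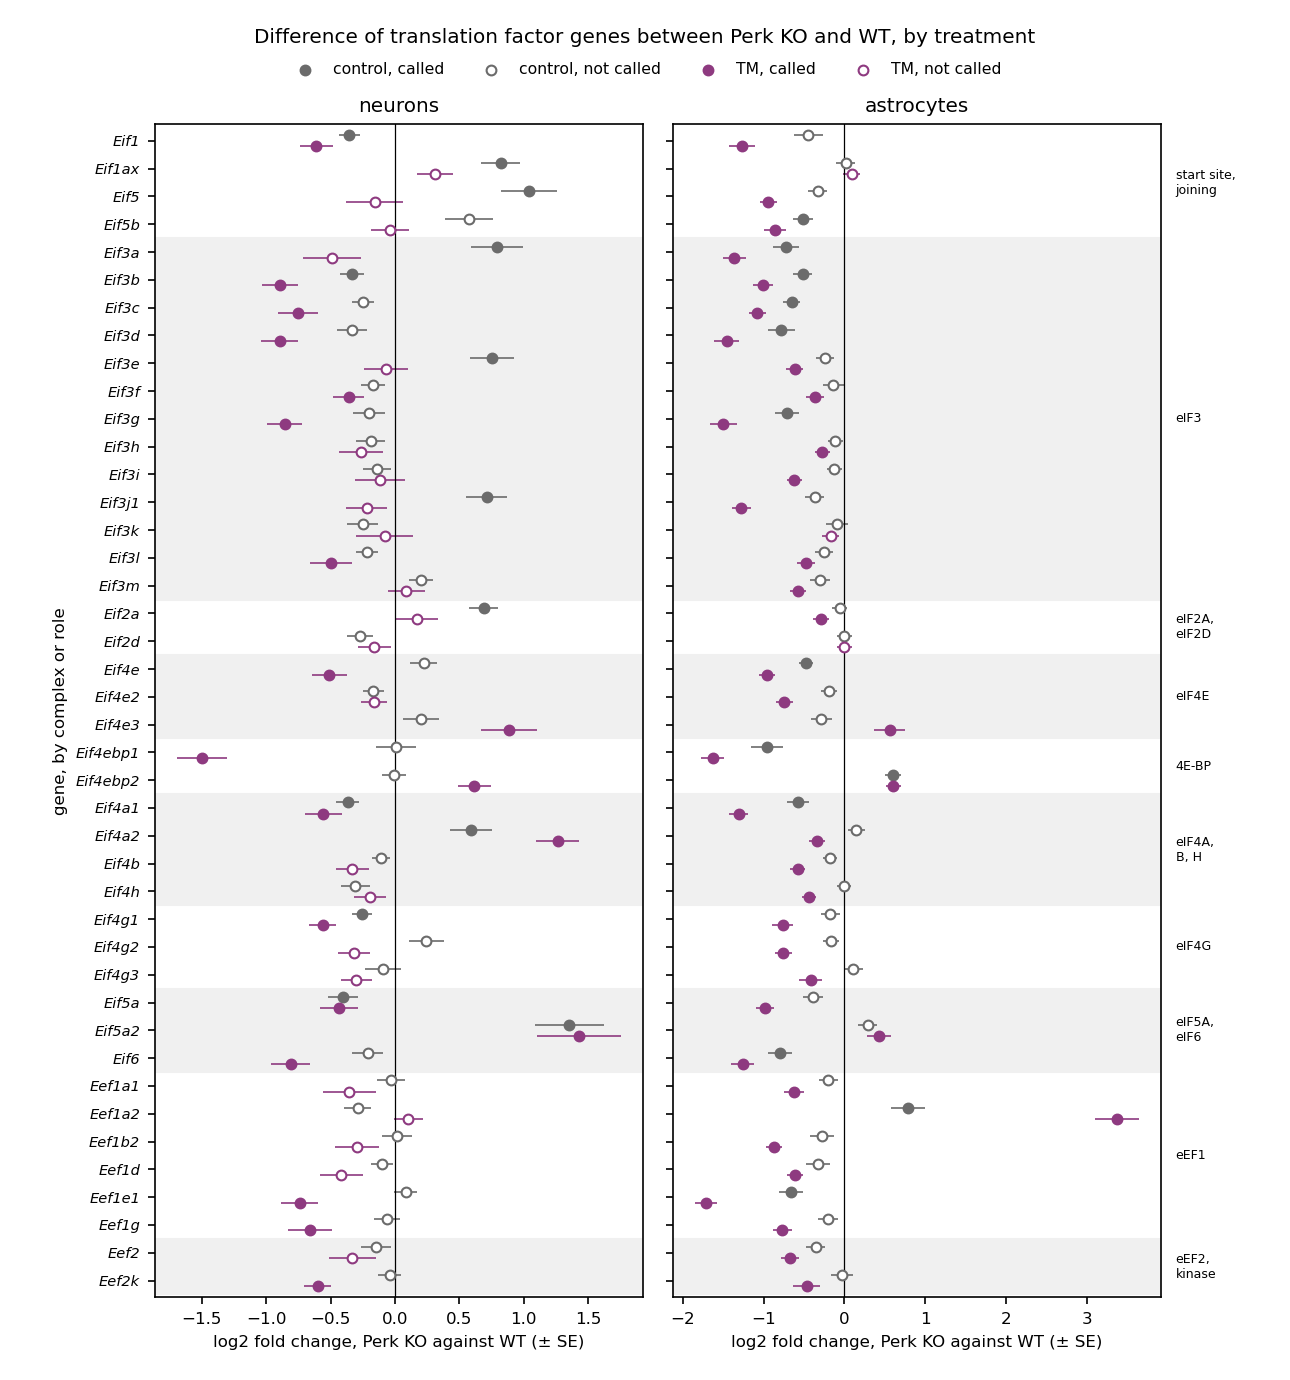
Log2 fold change of Perk KO against WT (x axis, ± standard error) for each of the 42 genes (y axis) in neurons and astrocytes, without TM (grey) and with TM (purple); filled points were called. In astrocytes the TM points lie mostly left of the control points, and Eef1a2 lies at 3.36; in neurons Eif4ebp1 lies at 0.01 without TM and -1.50 with it.

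The WT responses of neurons and astrocytes were compared as the change with TM in neurons minus that in astrocytes. It was below 0 and called for 9 of the 42 genes (against 12.5% of all genes) and above 0 and called for 2 (against 12.4%), with a median of -0.30. The lowest were Eif5a at -1.25 ± 0.15 (adjusted p = 0.000187), Eif4a1 at -1.24 ± 0.16 (adjusted p = 0.000222) and Eif4a2 at -1.08 ± 0.23 (adjusted p = 0.00527). The others were Eef1e1, -0.95, Eif4g1, -0.88, Eif4e2, -0.71, Eif3i, -0.67, Eif4h, -0.67, and Eif3b, -0.59, whose call was lost without WT astrocytes control replicate 1 (adjusted p = 0.0699). With no filter on low counts the calls of Eif3b (adjusted p = 0.101) and Eif3i (adjusted p = 0.0513) were lost. The genes above 0 were Eif4ebp1, 1.20 ± 0.21 (adjusted p = 0.00139), and Eef1a2, 2.47 ± 0.22 (adjusted p = 2.17e-05). Eif1, Eif5 and Eif3g, which rose in both cell types, had differences of -0.29 ± 0.19, 0.18 ± 0.29 and -0.27 ± 0.19 that did not pass. Since neuron cultures held astrocyte transcripts, the share of either cell type in these differences was not tested.

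Whether the genotype difference in response itself differed between cell types was tested over all 24 libraries. It was called for 4 of the 42 genes, 3 above 0 (against 2.08% of all genes) and 1 below (against 3.43%). Eif4a2 was at 1.25 ± 0.30 (adjusted p = 0.0156) and Eef1a2 at -2.10 ± 0.36 (adjusted p = 0.00146). The calls of Eif4ebp2, 0.71 ± 0.21 (adjusted p = 0.0472), and Eif4e2, 0.65 ± 0.17 (adjusted p = 0.0322), were lost without any 1 of 20 and any 1 of 13 of the 24 libraries, respectively. Both were lost with no filter on low counts (adjusted p = 0.153 and 0.201). With the replicate block 7 genes were above 0 and 1 below, against 4.87% and 6.70% of all genes in that fit. The added genes were Eif1, 0.67 (adjusted p = 0.0115), Eif4a1, 0.63 (adjusted p = 0.0279), Eif4h, 0.63 (adjusted p = 0.00802), and Eif5a, 0.64 (adjusted p = 0.0321), and DESeq2 also called Eif4h (adjusted p = 0.00759).

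Levels of the genes were also compared with each other, and between unstressed WT neurons and astrocytes. Levels per kilobase (CPM per kb of the deposited gene length) allow genes to be compared. Eef1a1 was the highest in both, at 1869.9 ± 196 CPM per kb in neurons and 1806 ± 48.6 in astrocytes, followed by Eef2 at 607 ± 94.9 and 484 ± 19.9. Eef1a2 was next in neurons, at 311 ± 46.4, and the lowest in astrocytes, at 3.52 ± 0.521. Within eIF3, whose subunits join in a single complex, levels in astrocytes ran from 17.5 ± 1.75 (Eif3j1) to 148 ± 9.44 CPM per kb (Eif3c). How the deposited gene length was summed over exons is not given in the sources used here, and it sets these levels.

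Of the 42 genes 11 were higher in WT control neurons than astrocytes (against 35.8% of all genes) and 13 lower (against 35.2%), with a median of 0.00. Eef1a2 was 90.4-fold higher in neurons, log2 6.50 ± 0.18 (adjusted p = 1e-08). Eif4ebp1, -2.21 ± 0.18 (adjusted p = 5.54e-06), Eif5, -1.73 ± 0.23 (adjusted p = 0.000156), Eif3a, -1.63 ± 0.24 (adjusted p = 0.000253), and Eif4e3, -1.49 ± 0.14 (adjusted p = 1.74e-05), were lower in neurons. Among cap-binding genes Eif4e2 was higher in neurons, 0.47 ± 0.11 (adjusted p = 0.00376), and Eif4e had -0.29 ± 0.13, which did not pass. Eif4e was called lower in neurons with the scaling over all libraries, -0.34 (adjusted p = 0.0364), and higher after GC correction, 0.50 (adjusted p = 0.00179). Its direction therefore depends on the processing. The number higher was 6 without neuron replicate 2, 5 without astrocyte replicate 2 and 7 without astrocyte replicate 1 or 3, and 7 after GC correction. With the scaling over all libraries 6 were higher and 15 lower (against 34.7% and 36.5% of all genes).

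**Figure D5:**
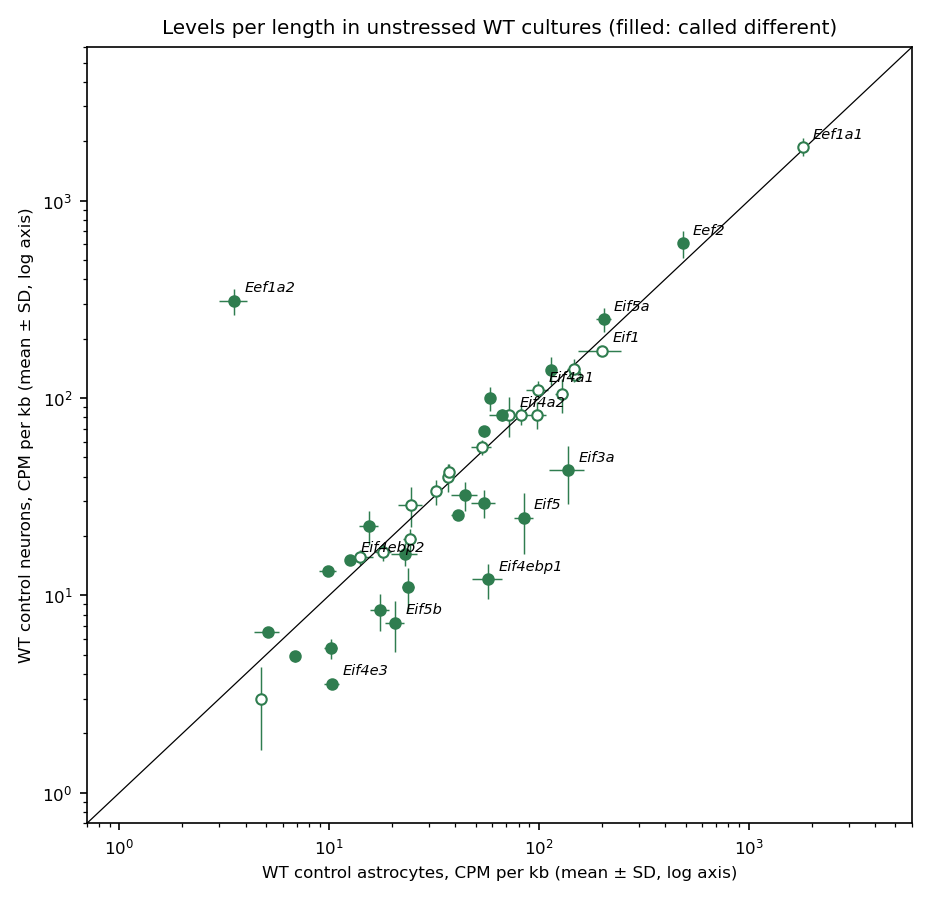
Mean level (CPM per kb, ± SD, n = 3, log axes) of each of the 42 genes in WT control astrocytes (x axis) and WT control neurons (y axis), with the line of equal levels; filled points were called different. Eef1a2 lies far above the line and Eif4ebp1, Eif5 and Eif3a below it.

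A wider list of 45 other genes of translation and its control (release and recycling factors, poly(A)-binding proteins, hypusination enzymes, eIF4E kinases, mTOR regulators and others) is given for comparison, of which 43 had enough counts. With TM 27 rose and 3 fell in WT astrocytes (62.8% and 6.98%, against 25.0% and 27.7% of all genes). In WT neurons 13 rose and 7 fell (30.2% and 16.3%, against 27.0% and 24.8%), so the share that rose was near that of all genes. In Perk KO astrocytes 2 rose and 1 fell (4.65% and 2.33%, against 5.55% and 4.60%). In Perk KO neurons 6 rose and 11 fell (14% and 25.6%, against 13.1% and 10.8%). Their medians were 0.47, 0.24, 0.05 and -0.11 in that order. The smallest p-values belonged to Eif1a, a close relative of Eif1ax, 1.25 ± 0.10 (adjusted p = 6.25e-05), in WT astrocytes and to Sesn2, an inhibitor of mTOR complex 1, 2.40 ± 0.09 (adjusted p = 4.36e-07), in WT neurons. Pabpc4, a poly(A)-binding protein, rose in WT neurons by 1.24 ± 0.08 (adjusted p = 5.27e-06), and its genotype difference there was -1.07 ± 0.12 (adjusted p = 6.28e-05). Mknk2, a kinase of eIF4E, had a genotype difference above 0, 1.10 ± 0.14 (adjusted p = 0.000172) in neurons and 1.22 ± 0.17 (adjusted p = 0.000258) in astrocytes. Among the eIF5A-modifying enzymes, Dhps differed between cell types in its WT response, -1.36 ± 0.17 (adjusted p = 0.00017), in the same direction as Eif5a.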

How the data were processed

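RNA was sequenced from 24 libraries in 8 groups of 3. Libraries were prepared with an unstranded kit and read in pairs, per the labels' protocols. Per the submitters' processing notes the tools were fastp, HISAT2, featureCounts and DESeq2 with the build GRCm38.p6, without versions. The deposited tables hold raw counts per gene beside the authors' FPKM values, log2 fold changes and p-values, which were not used for any result here, and each library occurs in 2 tables with 0 differences in counts between them. The counts alone were analysed here, and 96 other per-sample columns were not used. Totals of 16030022 to 25934747 counts per library set the precision, and the member with the fewest counts had a mean of 257.7 over all 24 libraries. Single libraries held fewer, down to 16 counts for Eef1a2 and 89 for Eif4e3.

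Genes with a mean count of at least 10 in the libraries compared were tested with edgeR 4.0.16 (R 4.3.3), by its quasi-likelihood F test with TMM scaling, on the libraries of each comparison, with Benjamini-Hochberg adjustment over all genes tested and a threshold of 0.05. The standard error is the absolute log2 change divided by the square root of F. CPM values use TMM over all 24 libraries, and CPM per kb divides by the deposited gene length. Alternatives were DESeq2 1.42.0, its size factors in edgeR, no filter, the replicate number as a block, a correction for GC content in 20 bins of genes, both together, one fit over all libraries of a cell type, each library left out and, chosen after seeing the data, TMM scaling over all 24 libraries. Scripts were tested on counts simulated with the same dispersion for all genes and no deviation shared by replicate number, unlike these libraries. Of changes of log2 1, 99% were recovered for TM in WT neurons and 67.6% for the genotype difference in neurons. Genotype differences that did not pass may therefore have been missed. Same-numbered astrocyte libraries deviated together (correlations of their deviations from the group means 0.23 to 0.57 in 18 pairs, against -0.49 to 0.16 for unlike numbers). The block is therefore given beside astrocyte TM responses and genotype differences that it changes. For control Perk KO against WT astrocytes only its counts are given. In neurons only same-numbered libraries of the 2 genotypes within a treatment did so throughout (0.13 to 0.3 in controls and 0.16 to 0.4 with TM). There the block is given beside the counts of those comparisons. Neuron libraries of unlike number correlated at -0.55 to 0.59, so what the number marks in neurons is uncertain.

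Values of every library are given for the 3 called genes with the largest rises and falls in the WT responses and in TM-treated Perk KO against WT neurons, and for the paralogues of eIF4E, 4E-BP, eIF4A, eIF4G, eIF5A and eEF1A, with a few more where a result turns on them. From the wider list the up to 3 genes with the smallest p per comparison could be named. Members, lists and these rules were chosen with earlier results of these data known.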

Additional observations from a re-analysis of the deposited data

Results flagged for a closer look

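The change with TM differed between WT neurons and WT astrocytes (neurons minus astrocytes, log2) for 11 of the 42 genes by edgeR's quasi-likelihood test of the difference. The values were 2.47 for Eef1a2, 1.20 for Eif4ebp1, -1.25 for Eif5a, -1.24 for Eif4a1, -1.08 for Eif4a2 and -0.95 for Eef1e1. They were -0.88 for Eif4g1, -0.71 for Eif4e2, -0.67 for Eif3i, -0.67 for Eif4h and -0.59 for Eif3b. The genotype difference in response differed between the cell types for Eef1a2 (-2.10), Eif4a2 (1.25), Eif4ebp2 (0.71) and Eif4e2 (0.65). Groups of 3 libraries are too small for a test of single libraries that stand apart.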

How the results depend on the processing

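Counts of genes called moved by over 1.5 times in these cases. For GC correction, DESeq2, no filter and the fit on 12 libraries the share of all genes is not given, and it may move too. With the replicate block the counts were 1 lower with TM in WT neurons (against 22.7% of all genes), 9 higher and 4 lower in Perk KO astrocytes, 9 lower in control Perk KO neurons, 20 lower in control Perk KO astrocytes, 2 above 0 for the genotype difference in neurons (against 15.5%) and 7 for its difference between cell types. In WT neurons, where same-numbered control and TM libraries correlated at -0.29 to 0.22, the block ended the calls of Eif3b, Eif3e, Eif3m, Eif4a2 and Eif5a. With GC correction they were 5 lower in WT neurons with TM, 3 higher and 3 lower in control Perk KO neurons, 3 above 0 for the genotype difference in neurons and 7 higher in neurons than astrocytes. GC correction with replicate block gave 5 lower with TM in WT neurons, 8 lower in Perk KO neurons, 10 higher and 4 lower in Perk KO astrocytes, 5 higher in control Perk KO neurons, 22 lower in control Perk KO astrocytes, 3 above 0 for the genotype difference in neurons and 8 for its difference between cell types. With the scaling over all libraries they were 6 lower with TM in WT neurons, 8 lower in control Perk KO neurons, 4 above and 9 below 0 for the genotype difference in neurons and 6 higher in neurons than astrocytes. DESeq2 called 9 lower in Perk KO neurons, 1 higher in Perk KO astrocytes and 3 above 0 for the genotype difference in neurons. Without the filter they were 8 lower in control neurons, 2 above 0 for the genotype difference in neurons and 1 for its difference between cell types. The fit on 12 libraries gave 0 lower in Perk KO astrocytes and 3 lower in control neurons. After GC correction, values turned sign for neurons against astrocytes in Eif3b (-0.25), Eif3m (0.26) and Eif4e (0.50). In control Perk KO neurons they turned sign in Eif2a (-0.004), Eif3e (-0.098), Eif3m (-0.70), Eif4a2 (-0.078) and Eif4e (-0.47), and with the replicate block added the values were 0.00, -0.099, -0.68, -0.082 and -0.47. The cause of these changes was not tested.

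Leaving out each library in turn gave, with TM, 16 to 21 higher and 1 to 6 lower in WT neurons, 2 to 8 higher and 3 to 10 lower in Perk KO neurons, 25 to 31 higher and 2 to 3 lower in WT astrocytes and 0 to 2 higher and 0 to 1 lower in Perk KO astrocytes. For Perk KO against WT it gave 0 to 12 higher and 0 to 13 lower in control neurons, 3 to 4 higher and 11 to 24 lower in TM-treated neurons, 0 to 2 higher and 0 to 15 lower in control astrocytes and 2 to 4 higher and 30 to 34 lower in TM-treated astrocytes. For the genotype difference in response it gave 0 to 2 higher and 9 to 21 lower in neurons and 2 to 2 higher and 16 to 24 lower in astrocytes, for the cell type difference of the WT response 2 to 2 higher and 8 to 13 lower, for the cell type difference of the genotype difference 1 to 5 higher and 1 to 1 lower and for neurons against astrocytes 5 to 13 higher and 11 to 15 lower. Same-numbered neuron libraries deviated together in 10 of 18 pairs (correlation over 0.1; range -0.46 to 0.4). With 3 libraries a group, the spread between libraries limits which small changes can be called.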
